A study of Arabidopsis thaliana with 9 samples.

Results

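Whole Arabidopsis thaliana seedlings treated with 2'-aminoacetophenone (2-AA) were compared with mock seedlings by bulk RNA sequencing, across all genes of the deposited count table. The table held 32833 loci, of which 7289 had 0 counts in every library, and 21059 passed a filter on low counts and were tested. Every seedling was Col-0 wild type, kept 5 days on a solid plate and then 5 days in liquid culture. Mock seedlings (3 libraries) are labelled as not treated, 2-AA seedlings (3 libraries) were given 200 uM 2-AA, and the flg22 group (3 libraries) was given 100 nM flg22, both agents dissolved in water. Entire plants were frozen, and TruSeq libraries were built on 1 ug of their total RNA. How long the treatments lasted, at what hour plants were harvested and whether mock plants received water are not stated by the labels. Replicates are described as biological in the design text, with no word on separate cultures, and the p-values therefore reflect only how far libraries of a group differ. Roots and shoots are pooled in each library, and a lower value in such bulk RNA cannot tell fewer cells of a type from less RNA per cell.

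2-AA is a small aromatic ketone with an amino group, made by the bacterium Pseudomonas aeruginosa under the control of its quorum-sensing system, by which bacterial cells respond to their own density. flg22 is a peptide of bacterial flagellin that plants perceive with the receptor kinase FLS2. Plant immunity to such molecules starts with receptors at the cell surface, which act with co-receptors such as BAK1. Cytoplasmic kinases, MAP kinases and calcium carry the signal to WRKY transcription factors, which bind the W-box. Plants dispose of foreign small molecules in stages: reductases and cytochromes P450 alter them, glutathione transferases and glycosyltransferases couple them to glutathione or sugar, and transporters move the products out of the cytosol. Some of these detoxification genes carry TGACG elements, which TGA factors bind. The circadian clock runs as a loop between morning genes (CCA1, LHY) and evening genes (TOC1 and the ELF3, ELF4 and LUX complex), and CCA1 and LHY bind the evening element in the promoters of genes that peak late in the day.

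Promoter sequences of 5 genes are shown because each carries, in a gene that changed strongly, the DNA element named above for its group. They are the 250 bases before the annotated gene start in the TAIR10.1 assembly, written 5' to 3' along the gene, with matches to the element in capitals on either strand. The letters searched were these: the evening element is AAAATATCT, the W-box is TTGACC or TTGACT, the TGACG element is TGACG, and the telobox, found before many genes of the translation machinery, is AAACCCTA. GRP7, a glycine-rich RNA-binding protein that cycles with the clock, has evening elements that start 76, 55 and 31 bases before the gene start (chr2:9266558-9266807, minus strand).
GRP7: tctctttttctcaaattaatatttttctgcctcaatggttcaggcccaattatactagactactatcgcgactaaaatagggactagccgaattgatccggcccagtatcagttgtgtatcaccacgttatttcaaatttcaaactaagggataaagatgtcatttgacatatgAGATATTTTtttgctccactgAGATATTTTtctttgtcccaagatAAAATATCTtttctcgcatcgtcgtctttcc
PRX71, a secreted peroxidase, has W-boxes that start 180, 68 and 49 bases before the gene start (chr5:25661008-25661257, minus strand).
PRX71: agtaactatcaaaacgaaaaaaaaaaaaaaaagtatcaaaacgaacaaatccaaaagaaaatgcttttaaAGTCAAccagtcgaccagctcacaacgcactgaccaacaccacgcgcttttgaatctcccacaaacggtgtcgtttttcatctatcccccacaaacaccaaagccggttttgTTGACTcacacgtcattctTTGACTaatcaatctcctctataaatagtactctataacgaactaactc
WRKY30, itself a W-box-binding factor, has W-boxes that start 124, 69 and 61 bases before the gene start (chr5:8154711-8154960, minus strand).
WRKY30: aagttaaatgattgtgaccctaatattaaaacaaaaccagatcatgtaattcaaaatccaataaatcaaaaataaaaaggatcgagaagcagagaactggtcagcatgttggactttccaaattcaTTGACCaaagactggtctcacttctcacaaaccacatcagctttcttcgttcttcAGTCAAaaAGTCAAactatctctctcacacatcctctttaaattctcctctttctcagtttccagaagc
GSTU7, a glutathione transferase of the tau class, has TGACG elements that start 61, 52 and 49 bases before the gene start, the last pair overlapping on opposite strands (chr2:12618900-12619149, minus strand).
GSTU7: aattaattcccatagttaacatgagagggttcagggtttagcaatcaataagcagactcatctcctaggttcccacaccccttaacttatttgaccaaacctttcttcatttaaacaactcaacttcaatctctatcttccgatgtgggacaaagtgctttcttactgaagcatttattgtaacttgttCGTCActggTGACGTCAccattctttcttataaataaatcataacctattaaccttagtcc
RPL16B, a protein of the large ribosomal subunit, has 1 telobox that starts 30 bases before the gene start (chr4:10301913-10302162, plus strand).
RPL16B: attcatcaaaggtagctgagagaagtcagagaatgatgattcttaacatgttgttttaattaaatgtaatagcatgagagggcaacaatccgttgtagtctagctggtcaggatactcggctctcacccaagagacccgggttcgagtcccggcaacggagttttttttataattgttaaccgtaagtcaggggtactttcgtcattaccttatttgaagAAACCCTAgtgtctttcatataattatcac

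The elements were counted in the same 250-base window of every gene, on both strands, as a description. The evening element was present before 6% of the genes at least 2-fold higher with 2-AA than in mock seedlings, before 1.6% of those at least 2-fold lower, and before 2.43% of all genes tested. A W-box was present before 37.5% of the genes at least 2-fold higher, 25.1% of those at least 2-fold lower and 28.5% of all tested. Among the lists described below, 16 of 22 pattern receptors and co-receptors and 23 of 36 cysteine-rich receptor-like kinases had a W-box, and so had 4 of 6 PROPEP genes, 21 of 64 WRKY factors, 9 of 78 NAC factors and 2 of 12 intracellular receptors and helpers. The TGACG element stood before 22.3% of the genes at least 2-fold higher and 19.2% of all tested, and before 28.3% of the 353 genes at least 2-fold higher with 2-AA than with flg22. In the detoxification lists it stood before 11 of 26 tau and 3 of 12 phi glutathione transferases and 4 of 13 reductases of reactive carbonyls. Shares nearer that of all genes or below it were found for 12 of 51 UDP-glycosyltransferases, 23 of 108 ABC transporters, 9 of 45 MATE carriers and 24 of 170 cytochromes P450. A telobox stood before 6.37% of the genes at least 2-fold lower with 2-AA than in mock seedlings, 2.03% of those at least 2-fold higher and 3.56% of all tested. The G-box, CACGTG, was present at 7.22% and 8.09% in the genes at least 2-fold higher and lower, against 7.14% of all tested. These shares are counts of letters in a window and say nothing about binding.

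Library totals ran from 26644996 to 33195007 counts. At a floor of 3 counts over these unscaled totals, 0 counts of a gene allow up to 0.0904 to 0.113 CPM. This floor covers counting error only. All other CPM values are counts relative to the edgeR-scaled library size. Mock 3, flg22 2 and 2-AA 2 stood apart from the rest: chloroplast-encoded genes took 0.098, 0.0743 and 0.241% of their counts, against 0.0211 to 0.0281% in the other 6 libraries. Each group has 1 such library. Of the 21059 genes tested, 13103 (62.2%) differed between 2-AA and mock seedlings at an adjusted p under 0.05 (edgeR quasi-likelihood test, Benjamini-Hochberg over all genes tested), a threshold at which a gene is called here. They divided into 6560 higher (31.2%) and 6543 lower (31.1%), and 2119 (10.1%) were higher and 2497 (11.9%) lower by at least 2-fold. The changes ran from slight to very large: the median absolute log2 fold change of called genes was 0.74, 4963 of them (37.9%) changed by less than 1.5-fold, and 133 were at least 16-fold higher and 66 at least 16-fold lower. The median log2 fold change of all genes tested was -0.003. Since most genes were called, each family below is to be read against these shares. Fold changes are log2 values of 2-AA minus mock with their standard errors (SE), and levels are CPM in libraries 1, 2 and 3 of a group in that order.

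The clock genes of 2-AA seedlings stood in another state from those of mock seedlings. Of 14 core clock genes, 7 were higher and 6 lower, and 1 was not called, where 31.2% of all genes were called higher and 31.1% lower. CCA1, a morning gene, stood at 145, 154 and 126 CPM in mock and at 1.91, 1.6 and 5.06 CPM in 2-AA seedlings, a log2 fold change of -5.60 ± 0.30 (adjusted p = 4.41e-09). The lowest mock library was far above the highest 2-AA library. LHY, its partner, fell by 6.21 on the log2 scale. TOC1, an evening gene, stood at 32, 26.7 and 31.1 CPM in mock and at 246, 239 and 226 CPM in 2-AA seedlings (2.99 ± 0.08, adjusted p = 2.53e-11). All 2-AA libraries lay above all mock libraries and close to one another. Other genes of the afternoon and evening rose too, with log2 fold changes of 4.87 for PRR5, 5.00 for PRR3, 4.72 for ELF4, 2.58 for ELF3 and 2.18 for LUX. PRR9, which peaks earlier in the day, fell from a mean of 11.9 to 0.734 CPM, while PRR7 had means of 78 and 77.4 CPM and was not called (adjusted p = 0.946).

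**Figure D1:**
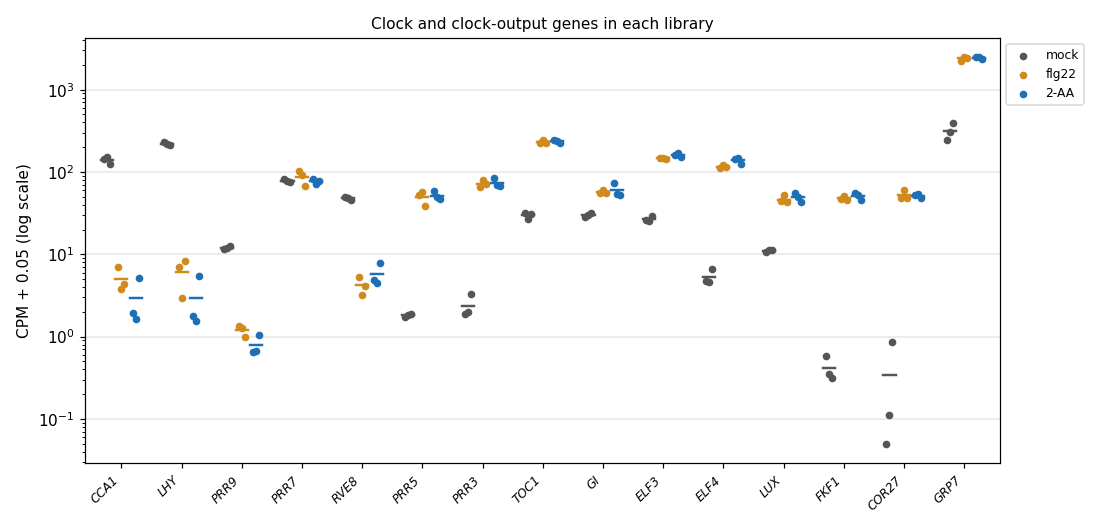
Levels of 15 clock and clock-output genes in each of the 9 libraries, as CPM + 0.05 on a log axis, with 1 point per library, a short bar at the mean of each group, and mock in grey, flg22 in orange and 2-AA in blue. CCA1 and LHY are low and TOC1, ELF4, FKF1 and COR27 high in all 3 2-AA libraries relative to all 3 mock libraries, and the flg22 libraries lie near the 2-AA libraries.

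Genes driven by the clock followed the same split, with 8 of 17 clock-output genes higher and 8 lower. FKF1, a blue-light receptor that peaks in the afternoon, was at 0.536, 0.304 and 0.263 CPM in mock and at 55.3, 53 and 46.2 CPM in 2-AA seedlings (7.12 ± 0.16, adjusted p = 5.91e-12). COR27, a cold- and clock-regulated gene, was at 0, 0.0608 and 0.822 CPM in mock, close to the floor, and at 53, 54.4 and 47.9 CPM in 2-AA seedlings (7.46 ± 0.38, adjusted p = 3.01e-09). GRP7 stood at 247, 302 and 396 CPM in mock and at 2464, 2476 and 2376 CPM in 2-AA seedlings, one of the largest gains in CPM of the data set (2.95 ± 0.13, adjusted p = 1.14e-09). In all 3 genes the groups were apart with no overlap. LNK2, which acts with the morning factor RVE8, fell by 3.25. A difference in the hour of harvest and a response to 2-AA cannot be told apart here, because the hour is not given. Between 2-AA and flg22 seedlings 1 of 14 core clock genes was called, CHE (-0.49), and 0 of 17 clock-output genes, against 15.8% of all genes. These counts turned on single libraries and, for ELF4, on the method. Without 2-AA replicate 3, which had the highest CCA1 and LHY of its group, 4 core clock genes were called lower and 1 higher than with flg22, including CCA1 (-1.51), LHY (-1.88), PRR9 (-0.92) and ELF4 (0.33). LHY was also called without flg22 replicate 2 (-1.34), and PRR7 (-0.33) and LNK2 (-0.65) without flg22 replicate 3. With all 2-AA and flg22 libraries kept, ELF4 was called higher than with flg22 by limma-voom (0.25) and in a fit of the 2 groups only (0.26). The same held with a term for mock 3, flg22 2 and 2-AA 2 (0.26). The part of the clock in differences between the treated groups was not tested. CHE was no longer called without mock 3, flg22 2 and 2-AA 2 (-0.33). Comparisons of 2-AA with flg22 are given beside those with mock below. Of all genes, 7.86% were called higher and 7.89% lower with 2-AA than with flg22.

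Receptors and co-receptors of the cell surface were higher in 2-AA than in mock seedlings, 18 of 22 called higher and 2 lower, with a median of 1.29 against -0.003 over all genes. Their summed level was 556, 546 and 592 CPM in mock and 1801, 1964 and 1610 CPM in 2-AA seedlings. FRK1, a receptor-like kinase widely used as a readout of early immune signalling, stood at 2.21, 1.61 and 3.55 CPM in mock and at 199, 246 and 164 CPM in 2-AA seedlings (6.37 ± 0.35, adjusted p = 5.84e-09). Every 2-AA library was far above every mock library. EFR, the receptor of a peptide of bacterial elongation factor Tu, rose from 3.98, 4.9 and 5.1 CPM to 34.6, 33.5 and 34.8 CPM (2.88 ± 0.11, adjusted p = 2.87e-10). IOS1, a malectin-like receptor kinase that associates with pattern receptors, rose from 26.7, 26.2 and 34.7 CPM to 485, 545 and 408 CPM (4.04 ± 0.18, adjusted p = 8.91e-10). The libraries of the groups did not overlap in either gene, a pattern that 33.7% of all genes showed in this direction and 34.1% in the other. FLS2 (AT5G46330) rose by 1.83, the S-domain kinase SD1-29, which perceives hydroxylated fatty acids of bacteria, by 2.98, and the chitin co-receptor CERK1 by 1.08.

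Co-receptors and partners of the receptors were higher too. BAK1 went from 57.2, 56.2 and 62 CPM to 112, 113 and 102 CPM (0.90 ± 0.07, adjusted p = 1.2e-07). The cytoplasmic kinases BIK1 and PBL1, which receptors phosphorylate, rose by 1.48 and 2.35. Lower in 2-AA seedlings were LYM3, a peptidoglycan-binding protein (-1.11), and PEPR1, a receptor of endogenous Pep peptides (-0.34). The PROPEP genes that encode those danger peptides were low, with summed levels of 9.17 to 10.8 CPM in mock and 5.86 to 6.64 CPM in 2-AA seedlings, and 3 of 6 fell while 3 were not called. Against flg22, 7 of the 22 receptor genes were higher with 2-AA and 0 were lower. Among the higher were EFR (0.66), IOS1 (0.95) and SD1-29 (0.87). In the test against 1.5-fold the count higher was 0. FRK1 was not called between the treatments (0.51 ± 0.26, adjusted p = 0.216), with flg22 libraries at 203, 140 and 84.8 CPM. Without flg22 replicate 1 it was called higher with 2-AA (0.85).

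Larger families of receptor-like kinases and proteins mostly rose as well. Of 36 cysteine-rich receptor-like kinases tested (of 39), 23 were higher and 4 lower, with a median of 1.28. CRK13 stood at 1.61, 0.791 and 1.38 CPM in mock and at 144, 174 and 92.4 CPM in 2-AA seedlings (6.77 ± 0.30, adjusted p = 1.09e-09). CRK42 showed the largest fall of the family, from 19.1, 17.2 and 15.8 CPM to 4.05, 3.7 and 3.08 CPM (-2.27 ± 0.16, adjusted p = 4.57e-08). Neither gene had overlapping libraries. Most CRK genes lie in a tandem array of near copies, and how reads shared by copies were counted is not given, so values of single CRK genes are uncertain. Wall-associated kinases, which bind pectin of the cell wall, were higher in 11 of 13, with a median of 1.73. WAKL10 had 0 counts in all mock libraries and 169 over the 2-AA libraries, at least 58.3-fold higher against 3 counts over the group. WAK5, at 0.217 and 0.0418 CPM, was called lower, and not without any single 2-AA library, without mock replicate 3, or without mock 3, flg22 2 and 2-AA 2 (-0.97). Of 36 L-type lectin receptor kinases tested (of 45), 19 were higher and 2 lower (1 lower without any of 2-AA replicate 1, 2-AA replicate 2, mock replicate 1 or mock replicate 2). LECRK-IV.1 rose from 19.2, 15.1 and 19.6 CPM to 257, 293 and 221 CPM (3.84 ± 0.17, adjusted p = 9.07e-10), well clear of the mock libraries, and was also higher than with flg22 (1.91). Receptor-like proteins, which lack a kinase domain, were higher in 28 of 44 and lower in 5, the latter 2 or 3 without single libraries of either group other than 2-AA replicate 3 and mock replicate 3. RLP33 rose by 3.93 and RLP21 by 4.66. Of 20 glutamate receptor-like channels 9 were higher and 3 lower, led by GLR1.2, at 0.1, 0.182 and 0.197 CPM in mock and 16.9, 25.6 and 26.9 CPM in 2-AA seedlings (7.13 ± 0.51, adjusted p = 5.56e-08).

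Intracellular immune receptors and their helpers rose without exception among those tested. All 12 tested of 13 were higher, with a median of 1.17, and their summed level went from 413, 391 and 437 CPM to 985, 1057 and 933 CPM. ADR1-L1, a helper that works with the lipase-like proteins EDS1 and PAD4, stood at 50.9, 47.6 and 65 CPM in mock and at 176, 205 and 161 CPM in 2-AA seedlings (1.73 ± 0.12, adjusted p = 6.56e-08). The groups lay apart. ZAR1 rose by 1.33. Signalling components changed less: 8 of 17 genes of the MAP kinase cascade were higher and 0 lower, with a median of 0.30. MPK3 rose from 48.9, 50 and 54.6 CPM to 110, 128 and 106 CPM (1.16 ± 0.08, adjusted p = 6.6e-08), and MPK11, a low-level relative of MPK4, by 2.51. MPK6 (0.10) and MPK4 (0.12) were not called. Calcium-dependent protein kinases were higher in 11 of 26 and lower in 3, and plant U-box ubiquitin ligases higher in 10 of 22 and lower in 3. PUB22, a ligase that dampens immune signalling, rose from 8.87, 6.51 and 6.28 CPM to 60.7, 77.8 and 54.2 CPM (3.15 ± 0.18, adjusted p = 6.79e-09). RBOHD, the oxidase of the immune oxidative burst, was at 88.7, 70.1 and 97.4 CPM in mock and at 80.5, 84.7 and 69 CPM in 2-AA seedlings and was not called (-0.13 ± 0.11, adjusted p = 0.307). Its libraries overlapped, and without mock replicate 2 it was called lower (-0.25).

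**Figure D2:**
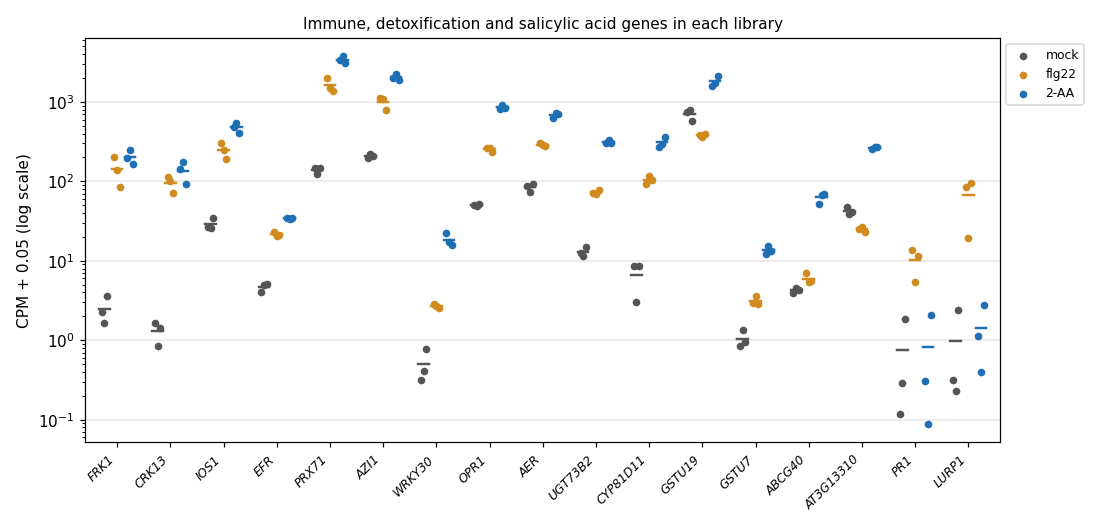
Levels of 17 immune, detoxification and salicylic acid genes in each of the 9 libraries, as CPM + 0.05 on a log axis, with 1 point per library, a short bar at the mean of each group, and mock in grey, flg22 in orange and 2-AA in blue. From FRK1 to AT3G13310 every 2-AA library is above every mock library, while PR1 and LURP1 are high with flg22 and overlap between mock and 2-AA.

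Among transcription factors, most WRKY genes were higher, as were most genes of the ZAT, TGA and NPR, and ERF lists given below. Of 64 WRKY factors tested (of 72), 40 were higher, 22 were not called and 2 were lower, with a median of 0.84. The 2 lower were WRKY44 and WRKY72, and leaving out 2-AA replicate 2, mock replicate 3 or mock 3, flg22 2 and 2-AA 2 together left 0 lower. WRKY72 was also lost without 2-AA replicate 1 or mock replicate 1, and both were lost without 2-AA replicate 3, where 1 other WRKY factor was called lower. WRKY30 stood at 0.268, 0.365 and 0.724 CPM in mock and at 22.3, 17.1 and 15.6 CPM in 2-AA seedlings (5.33 ± 0.26, adjusted p = 2.19e-09). WRKY22, a factor placed downstream of the flagellin MAP kinase cascade, rose from 8.7, 6.51 and 5.85 CPM to 64.4, 84.1 and 55.3 CPM (3.27 ± 0.19, adjusted p = 1.03e-08). Both were clear of the mock libraries and also higher than with flg22, by 2.78 and 1.79. Against flg22, 13 of the 64 were higher and 8 lower. All 5 ZAT zinc-finger factors, which respond to oxidative stress, were higher than in mock (median 3.03) and higher than with flg22 (median 1.99). ZAT12 rose from 3.28, 2.68 and 4.05 CPM to 23.5, 29.1 and 21.7 CPM (2.89 ± 0.19, adjusted p = 2.71e-08). ZAT11 rose by 4.71.

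Other factor families differed in how far they divided between directions. NAC factors were higher in 28 of 78 and lower in 10, with ANAC102 rising from 31.3, 28 and 29.3 CPM to 186, 189 and 188 CPM (2.67 ± 0.07, adjusted p = 2.28e-11) and NAC044 falling by 3.39. Against flg22, 15 NAC factors were higher and 5 lower (2 without 2-AA replicate 3, and 3 without 2-AA replicate 1 or flg22 replicate 1). MYB factors were higher in 29 of 90 and lower in 19, and lower in 12 without mock 3, flg22 2 and 2-AA 2. MYB4, known as a repressor of phenylpropanoid genes, rose from 16.2 to 19 CPM in the mock libraries to 96.4, 106 and 93.4 CPM (2.47 ± 0.11, adjusted p = 9.22e-10), with flg22 libraries at 20.2, 28 and 26.1 CPM. The 2-AA libraries were thus apart from both other groups. TGA factors and NPR co-regulators of salicylic acid signalling were higher in 8 of 13 and lower in 0, with NPR1 at 1.09 and TGA3 at 1.67. ERF factors were higher in 14 of 23 and lower in 2 (1 without 2-AA replicate 2, mock replicate 2 or mock replicate 3). Of 25 BBX zinc-finger factors of light and clock signalling, 16 fell and 8 rose, among them BBX16 (-5.83), BBX7 (3.50) and BBX22 (3.34).

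Detoxification genes gave some of the largest differences, with both directions inside each family. Among 13 reductases of reactive carbonyls 6 were higher and 4 lower, and the summed level went from 677, 658 and 737 CPM to 2453, 2735 and 2598 CPM. OPR1, an oxophytodienoate reductase of the old yellow enzyme family, stood at 50.6, 48.8 and 51.9 CPM in mock and at 816, 919 and 828 CPM in 2-AA seedlings (4.08 ± 0.08, adjusted p = 4.37e-12). AER, a reductase of alkenals, rose from 86.2, 73.7 and 92.1 CPM to 634, 717 and 712 CPM (3.03 ± 0.09, adjusted p = 4.46e-11), and the quinone reductase FQR1 by 2.46. All 3 were also higher than with flg22, by 1.75, 1.25 and 1.25. In each the 2-AA libraries lay above the flg22 libraries, which lay above the mock libraries; for OPR1 the flg22 libraries were at 264, 261 and 237 CPM. Of 170 cytochromes P450 tested (of 240 listed), 63 were higher and 52 lower, near the shares of all genes. CYP81D11, known for its induction by foreign chemicals, rose from 8.5, 3.01 and 8.52 CPM to 268, 294 and 365 CPM (5.54 ± 0.29, adjusted p = 3.49e-09).

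Enzymes that conjugate small molecules followed. UDP-glycosyltransferases were higher in 26 of 51 and lower in 12, and against flg22 higher in 17 and lower in 5. UGT73B2, which couples glucose to flavonols, rose from 12.6, 11.4 and 14.7 CPM to 305, 329 and 300 CPM (4.59 ± 0.10, adjusted p = 5.66e-12), and its relative UGT73B4 by 4.06. With flg22 UGT73B2 was at 70.8, 68.8 and 77.6 CPM, between the other groups. UGT78D1, a flavonol rhamnosyltransferase, fell by 2.64. Tau glutathione transferases split evenly, 10 of 26 higher and 10 lower, while against flg22 11 were higher and 2 lower, the latter 0 or 1 without single libraries other than 2-AA replicate 2. GSTU7 was at 0.803, 1.31 and 0.888 CPM in mock and at 12.3, 15.3 and 13.2 CPM in 2-AA seedlings (3.75 ± 0.20, adjusted p = 5.01e-09). GSTU19, the most abundant of the class, rose from 752, 800 and 582 CPM to 1589, 1735 and 2126 CPM (1.35 ± 0.12, adjusted p = 4.46e-07). Its flg22 libraries, at 383, 367 and 394 CPM, lay below the mock libraries, so the difference between the treatments was larger (2.25). GSTU24, a gene induced by explosives and herbicide safeners, overlapped between mock (56.6, 83 and 40.7 CPM) and 2-AA (67.6, 77.9 and 97.8 CPM) and was not called (adjusted p = 0.104), but was called higher without mock replicate 2 (0.75). With flg22 it was at 15.1, 9.22 and 11.7 CPM, below both. GSTU17 fell from 206, 166 and 203 CPM to 8.14, 10.7 and 9.25 CPM (-4.36 ± 0.13, adjusted p = 4.01e-11). GSTU11 had 0 counts in mock and 477 over the 2-AA libraries, at least 164-fold higher against 3 counts over the group. Several GSTU genes are tandem copies, and their single values are uncertain for the reason given for the CRK genes. Phi glutathione transferases were higher in 7 of 12 and lower in 2, with GSTF8 at 1.87.

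Transporters and the supply of glutathione completed this group. ABC transporters were higher in 42 of 108 and lower in 27, and against flg22 higher in 21 and lower in 7 (4 without 2-AA replicate 1 or flg22 replicate 2). ABCG36, also called PEN3, an exporter at sites of attempted infection, rose from 223, 212 and 263 CPM to 1531, 1704 and 1495 CPM (2.76 ± 0.09, adjusted p = 1.16e-10). ABCG40, known as an importer of abscisic acid, was at 3.92, 4.47 and 4.28 CPM in mock, at 6.92, 5.32 and 5.48 CPM with flg22 and at 52.4, 67.2 and 69.3 CPM with 2-AA (3.90 ± 0.14 over mock and 3.41 ± 0.13 over flg22, adjusted p = 2.02e-10 and 1.85e-08). It was among the 8 largest excesses over flg22. The carrier DTX35 of the MATE family rose by 1.57, and the family as a whole was higher in 17 of 45 and lower in 16. The sulfate and glutathione supply list went down, with 14 of 21 lower and 4 higher. APR2, which reduces activated sulfate, fell by 1.46, GSH1, which makes the precursor of glutathione, was not called (0.08), and GSH2, which completes it, rose by 1.26.

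The lists of protein homeostasis differed in direction. Of 16 genes of the endoplasmic reticulum list, which holds chaperones, folding enzymes and the stress-response factors BZIP60 and NAC103, 15 were higher than in mock and 14 higher than with flg22, with a median of 0.72 in both comparisons. BIP3, the stress-inducible form of the luminal chaperone BiP, rose from 2.11, 2.92 and 1.91 CPM to 15.4, 16.3 and 10 CPM (2.58 ± 0.22, adjusted p = 2.85e-07), while its flg22 libraries, at 2.62, 2.17 and 2.47 CPM, lay within the mock range. BIP1 rose from 396, 378 and 359 CPM to 567, 628 and 553 CPM (0.63 ± 0.07, adjusted p = 6.17e-06), and the stress-response factor BZIP60 by 1.05. The 1 lower gene, NAC103 (-1.07), was no longer called without 2-AA replicate 1, 2-AA replicate 2, mock replicate 2 or mock replicate 3, nor without mock 3, flg22 2 and 2-AA 2. Proteasome subunits moved little but mostly up: 23 of 39 were higher and 5 lower, with a median of 0.23 and 0 changes of 2-fold, and 2 were lower without mock 3, flg22 2 and 2-AA 2. Against flg22, 32 of the 39 were higher and 0 lower, with a median of 0.36. The count higher was 21 without flg22 replicate 2 and 19 without mock 3, flg22 2 and 2-AA 2. In the test against 1.5-fold it was 1. PAA2, a subunit of the proteasome core, rose by 0.94 and was also higher than with flg22 (0.71). Cytosolic and plastid heat shock proteins went the other way, with all 12 tested of 13 lower than in mock and a median of -2.01. HSP70 fell from 327, 280 and 252 CPM to 37.3, 42.3 and 26 CPM (-3.03 ± 0.19, adjusted p = 1.8e-08). Its regulator HSFA2 fell by 2.71, and the abundant constitutive chaperone HSC70-1 by 1.00. The heat shock factors as a list did not fall: of 18 tested (of 21), 10 were higher and 2 lower, with a median of 0.65. Of the 12 heat shock proteins, 4 were higher with 2-AA than with flg22 (2 without mock 3, flg22 2 and 2-AA 2), among them HSP90.1 (1.42). Clock genes differ along the same contrast with mock, and their part in these falls was not tested.

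Genes of redox and energy metabolism gave mixed results. Class III peroxidases, secreted enzymes that act on hydrogen peroxide in the cell wall, were higher in 30 of 62 and lower in 11 (7 without 2-AA replicate 3), and their summed level went from 2548, 2684 and 2936 CPM to 7666, 8503 and 7282 CPM. PRX71 made up much of this, at 147, 123 and 146 CPM in mock and 3343, 3769 and 3059 CPM in 2-AA seedlings (4.61 ± 0.14, adjusted p = 7.41e-11), the largest gain in mean CPM among the called genes. The peroxidase AT5G39580 rose from 8.33, 5.84 and 5.76 CPM to 559, 600 and 499 CPM (6.38 ± 0.21, adjusted p = 1.14e-10). Both were higher than with flg22, by 1.06 and 1.17. Among 20 antioxidant enzymes 10 were higher and 6 lower. The catalases diverged: CAT2, the main leaf catalase (AT4G35090), fell by 1.32 and CAT1 rose by 1.91. Hypoxia response genes were lower in 8 of 12 and higher in 2, with a median of -2.20. LBD41 fell from 213, 211 and 211 CPM to 13.9, 14.9 and 11.9 CPM (-3.96 ± 0.17, adjusted p = 6.57e-10) and ADH1, alcohol dehydrogenase, from 407, 289 and 614 CPM to 72.4, 41.3 and 36.1 CPM (-3.13 ± 0.46, adjusted p = 5.46e-05). The mock libraries spread widely for ADH1 yet stayed above all 2-AA libraries. PDC2, a pyruvate decarboxylase of the same route, rose from a mean of 17.9 to 117 CPM. Of 11 mitochondrial retrograde genes 4 were higher and 5 lower, with the alternative oxidase AOX1A at 0.78 and its homologue AOX1B at 143 counts over the mock libraries and 0 over the 2-AA libraries, at least 46.1-fold lower.

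Genes of salicylic acid, the hormone of resistance to pathogens that feed on living tissue, separated 2-AA from flg22. Of 13 genes of salicylic and pipecolic acid synthesis 5 were higher and 3 lower than in mock. CBP60G, a factor that activates salicylic acid synthesis, rose from 2.24, 1.86 and 2.86 CPM to 30.7, 36.8 and 27.8 CPM (3.77 ± 0.23, adjusted p = 1.13e-08) and PBS3, which conjugates isochorismate, by 4.02. ICS1, isochorismate synthase, went from 15.3, 15.5 and 13.1 CPM to 29.5, 35.3 and 21.6 CPM (0.97 ± 0.24, adjusted p = 0.00342), a call lost without mock 3, flg22 2 and 2-AA 2 (0.74). Of 8 output genes, 2 were higher and 1 lower than in mock, and their summed level was 21, 25.6 and 26.6 CPM in mock and 49, 46.3 and 64.6 CPM in 2-AA seedlings. PR1, the classic marker, was at 0.0669, 0.243 and 1.78 CPM in mock, at 13.7, 5.35 and 11.5 CPM with flg22 and at 0.255, 0.0381 and 2 CPM with 2-AA. It overlapped between mock and 2-AA (0.20 ± 0.99, adjusted p = 0.872) and was lower with 2-AA than with flg22 (-3.67 ± 0.85, adjusted p = 0.0101), a call lost with robust dispersions (adjusted p = 0.0947). LURP1 was at 83.7, 19.5 and 95.9 CPM with flg22 and at 1.08, 0.343 and 2.74 CPM with 2-AA, a difference of -5.52 (adjusted p = 0.000219), and was not called against mock (0.65). Without mock 3, flg22 2 and 2-AA 2, PR1 (2.82) and LURP1 were called higher than in mock, and 4 of the 8 genes were. BGL2, a glucanase, was called lower than in mock at levels under 1 CPM (-1.50), and not without 2-AA replicate 2, 2-AA replicate 3 or mock replicate 1, nor without mock 3, flg22 2 and 2-AA 2. Against flg22, 6 of the 8 were lower and 1 was higher. That gene, PR5, a thaumatin-like protein, rose from 11.1, 12.7 and 14.7 CPM to 38.4, 35.4 and 48.9 CPM (1.68 ± 0.18, adjusted p = 2.37e-06) with flg22 libraries at 13.4, 11.9 and 19.4 CPM.

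Other hormone families differed, and some stood near the shares of all genes (31.2% higher and 31.1% lower). Of 16 genes of ethylene synthesis and perception 11 were higher and 0 lower (1 lower without mock 3, flg22 2 and 2-AA 2). ACS7, which makes the ethylene precursor, rose from 5.76, 4.99 and 7.47 CPM to 93.1, 98.4 and 74.8 CPM (3.87 ± 0.21, adjusted p = 5.54e-09), and ACS6 by 1.52. Jasmonate genes divided, with 4 of 11 JAZ repressors higher and 6 lower, and 7 of 17 genes of synthesis and output higher and 9 lower. JAZ1 rose and JAZ9 fell by 1.76, while LOX2, a chloroplast lipoxygenase, fell by 1.59. Abscisic acid response genes were higher in 5 of 14 and lower in 5, near the shares of all genes. The count higher was 3 without 2-AA replicate 2 or mock replicate 3. Lists of growth hormones differed. SAUR genes, which auxin induces in growing cells, were lower in 25 of 58 and higher in 10 (5 without 2-AA replicate 3 and 6 without mock replicate 2). SAUR78 fell from 208, 198 and 198 CPM to 30.2, 32.4 and 32.3 CPM (-2.67 ± 0.08, adjusted p = 4.01e-11). Cytokinin response regulators were lower in 7 of 8 and higher in 0, with ARR9 at -1.98, and brassinosteroid synthesis genes in 5 of 8 (3 without 2-AA replicate 1), with 1 higher (2 without mock replicate 3). GH3 enzymes, which conjugate auxin and other acids, were higher in 5 of 9 and lower in 4. Gibberellin metabolism genes were higher in 3 of 9 and lower in 3, near the shares of all genes. Aux/IAA repressors, at 8 of 30 higher and 8 lower, showed no common direction.

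Genes of phenylpropanoid metabolism were mostly lower. All 9 entry genes were lower than in mock, with a median of -2.02, and all 9 were also lower than with flg22, with a median of -1.08. Their summed level was 1944, 1648 and 2009 CPM in mock and 574, 606 and 537 CPM in 2-AA seedlings. PAL1, phenylalanine ammonia-lyase, fell from 575, 466 and 606 CPM to 227, 251 and 205 CPM (-1.27 ± 0.13, adjusted p = 1.46e-06). 4CL1, which activates the resulting acids, fell from 297, 246 and 319 CPM to 39.9, 42 and 37.9 CPM (-2.85 ± 0.11, adjusted p = 3.49e-10), with flg22 libraries at 150, 129 and 118 CPM. For both genes the 2-AA libraries were the lowest of all 9. The steps toward lignin monomers were lower in 12 of 16 and higher in 0, with CAD4 at -1.84 and CCOAOMT1 at -1.71, and 8 of 16 were lower than with flg22. Flavonoid and anthocyanin genes were lower in 10 of 15 and higher in 2 (1 without mock replicate 2). DFR, the first enzyme committed to anthocyanins, fell from 21.4, 17 and 20 CPM to 0.766, 0.152 and 0.37 CPM (-5.45 ± 0.63, adjusted p = 5.78e-06), while MYB12, an activator of flavonol genes, rose by 3.14.

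Genes of glucosinolates, sulfur-rich defence compounds of the cabbage family, differed by class. Aliphatic glucosinolate genes were lower in 13 of 15 and higher in 0, with a median of -1.29, and their regulator MYB29 fell from 20.8, 17.2 and 14.8 CPM to 1.34, 0.0762 and 1.36 CPM (-4.20 ± 0.54, adjusted p = 1.7e-05). In the list for indole glucosinolates and camalexin, 6 of 18 were higher and 5 lower, near the shares of all genes (31.2% and 31.1%). PEN2, a myrosinase that activates indole glucosinolates (AT2G44490), rose by 1.86 and CYP81F2, which modifies them, by 2.83, whereas CYP79B2, which starts the pathway from tryptophan, fell by 1.27. CYP71A12, of the route to camalexin and related compounds, rose from 0.937, 0.547 and 1.18 CPM to 9.32, 10.4 and 9.13 CPM (3.44 ± 0.29, adjusted p = 3.34e-07) and was lower than with flg22, at 42.4, 23.7 and 23.1 CPM (-1.63). PAD3, the last enzyme of camalexin synthesis, was at means of 2.88 and 2.26 CPM and was not called (adjusted p = 0.268). In the anthranilate and tryptophan list, chosen because 2-AA is made from anthranilate in bacteria, 3 of 13 were higher (5 without 2-AA replicate 3) and 4 lower. The nitrilase NIT4 rose by 1.37 and NIT2 by 0.92, the latter also above flg22 (2.46).

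Light and photosynthesis genes changed alongside the clock. Of 20 light-harvesting antenna genes 15 were lower and 4 higher, with a median of -1.08, and their summed level fell from 42647, 42286 and 38386 CPM to 17984, 17021 and 20314 CPM. The antenna genes were unequal. LHCB1.1 fell from 4468, 4269 and 3744 CPM to 207, 157 and 537 CPM (-3.79 ± 0.41, adjusted p = 2.9e-06) and LHCB2.3 by 4.51. LHCB1.3 stood at 8632, 8536 and 8365 CPM in mock and at 6746, 6606 and 7783 CPM in 2-AA seedlings (-0.27 ± 0.08, adjusted p = 0.0116), a call lost without 2-AA replicate 1, 2-AA replicate 2 or mock 3, flg22 2 and 2-AA 2 together. LHCB1.4 rose by 0.71. The LHCB1 genes are near copies, so the division of reads among them is uncertain. Chlorophyll synthesis genes were lower in 8 of 15 and higher in 5, with CAO (AT1G44446), which makes chlorophyll b, at -3.15 and CHLH, of the magnesium chelatase, at -1.91. Photosystem subunits (13 of 24 lower, 3 higher) and Calvin cycle genes (6 of 13 lower, 2 higher) changed less, with medians of -0.18 and -0.08. RBCS1A, a small subunit of Rubisco, was at 14694, 14409 and 15487 CPM in mock and at 12239, 12171 and 13597 CPM in 2-AA seedlings (-0.23 ± 0.06, adjusted p = 0.00314), and was no longer called without mock 3, flg22 2 and 2-AA 2 (-0.16). Of the Calvin cycle genes, 12 of 13 were lower than with flg22 (7 without 2-AA replicate 1), with a median of -0.26.

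Starch genes went both ways. GBSS1, the granule-bound synthase, showed a very large fall, from 260, 211 and 229 CPM to 1.91, 2.13 and 3.82 CPM (-6.46 ± 0.26, adjusted p = 4.82e-10). GWD1, which phosphorylates starch for its breakdown, rose from 120, 111 and 136 CPM to 689, 727 and 641 CPM (2.48 ± 0.09, adjusted p = 3.1e-10), and the cytosolic phosphorylase PHS2 by 2.73. In all, 12 of 22 were higher and 7 lower than in mock, and 8 were lower (4 without 2-AA replicate 2) and 0 higher (1 without 2-AA replicate 3) than with flg22. Among light signalling genes 10 of 18 were lower and 4 higher. PIF4, a factor that promotes elongation growth, fell from 56, 54.9 and 37.3 CPM to 1.75, 1.37 and 3.15 CPM (-4.54 ± 0.25, adjusted p = 5.79e-09), and ELIP2, a protein of light stress, by 3.45. HY5, which promotes development in the light, rose by 1.47. CCA1, LHY and TOC1 differ along the same contrast by the values given above, and the part of the clock in the antenna, chlorophyll and starch genes was not tested.

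**Figure D3:**
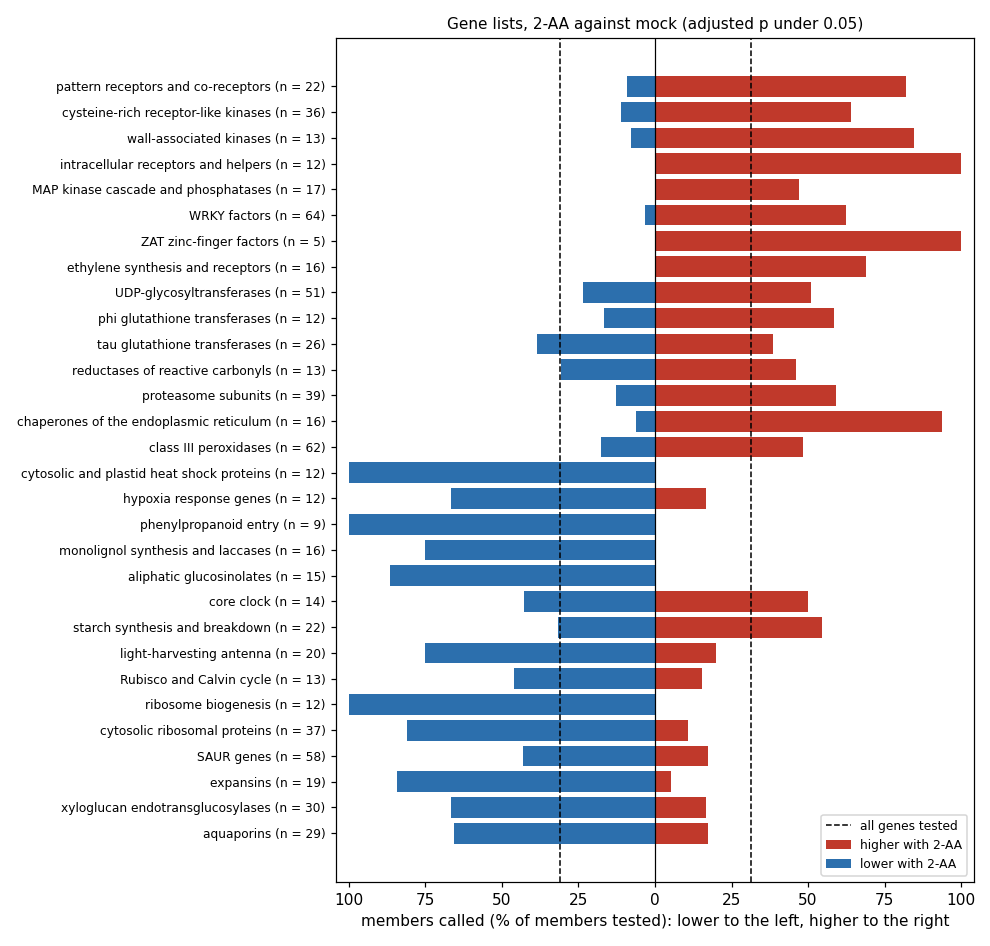
Share of tested members of 30 gene lists called higher (red, to the right) or lower (blue, to the left) in 2-AA than in mock seedlings, in percent of members, with the number tested in brackets and dashed lines at the shares of all 21059 genes tested (31.2% and 31.1%). Receptor, WRKY and ER chaperone lists lie mostly to the right, and heat shock protein, phenylpropanoid, ribosome biogenesis and expansin lists mostly to the left.

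Growth genes were lower. All 12 ribosome biogenesis genes fell, with a median of -1.68 and summed levels of 3238, 3158 and 3050 CPM in mock and 954, 860 and 941 CPM in 2-AA seedlings. NOP56, a core protein of the particles that modify ribosomal RNA, fell from 462, 447 and 417 CPM to 94.8, 75.7 and 93.5 CPM (-2.33 ± 0.12, adjusted p = 3.2e-09). Cytosolic ribosomal proteins were lower in 30 of 37 tested (of 43) and higher in 4, with RPL16B at -1.40 and RPL12-A at 0.55. Cell cycle genes were lower in 7 of 12 and higher in 0 (1 without 2-AA replicate 2), with PCNA1 of DNA replication at -1.45, and the mitotic cyclin CYCB1;1, at means of 7.27 and 6.84 CPM, was not called. Enzymes and proteins of the growing wall fell in most members: 16 of 19 expansins tested (of 31 listed), 20 of 30 xyloglucan endotransglucosylases, 9 of 14 cellulose and callose synthases and 13 of 15 fasciclin-like arabinogalactan proteins. EXPB3 fell by 3.18 and XTH6 by 4.05, while XTH24 rose by 2.99. In the 4 wall lists 1, 5, 0 and 1 members were higher. The single calls were lost without mock replicate 1 or 2-AA replicate 2, and that of the expansins also without mock replicate 3. The xyloglucan count of 5 was 3 without mock replicate 2, and the synthases gained 1 call without mock replicate 3. Root hair markers summed to 108 to 174 CPM in mock and 87.7 to 103 CPM in 2-AA seedlings (5 of 8 lower, 1 higher, the latter lost without 2-AA replicate 1 or mock replicate 1), endodermis markers to 33.5 to 40 and 30.7 to 37.3 CPM (1 of 7 lower, 0 higher), guard cell markers to 75.6 to 78.5 and 88.4 to 94.4 CPM (3 of 6 higher, 1 lower, the latter lost without 2-AA replicate 2 or any mock library) and phloem markers to 179 to 196 and 346 to 412 CPM (1 of 4 higher, SUC2, by 1.43, and 0 lower or, without 2-AA replicate 1, 1 lower). No marker list was at 0, and the part of a changed cell makeup in the growth genes was not tested.

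**Figure D4:**
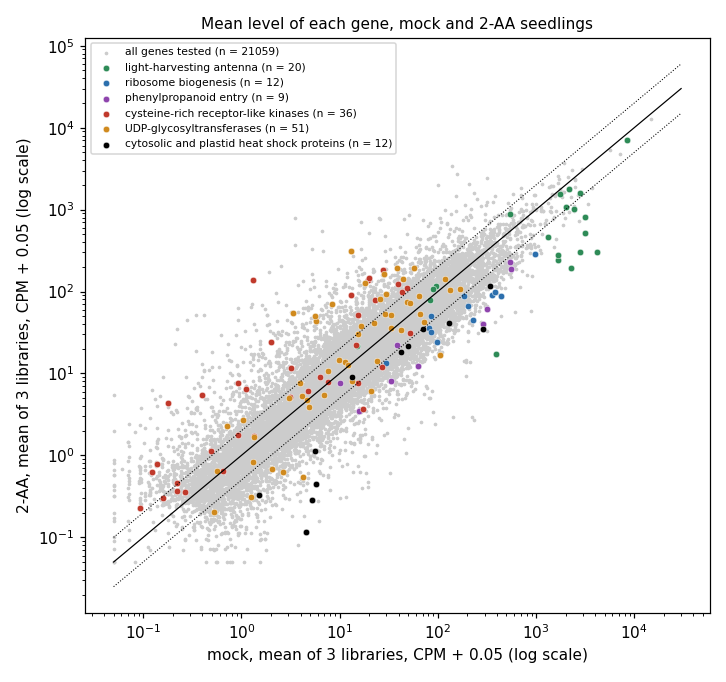
Mean level of each of the 21059 genes tested in mock (horizontal) and 2-AA (vertical) seedlings, as CPM + 0.05 on log axes, with members of 6 lists in colour, a solid line at equal levels and dotted lines at 2-fold differences. Antenna, ribosome biogenesis, phenylpropanoid and heat shock genes lie mostly below the line, and receptor-like kinases and glycosyltransferases mostly above it.

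Transport and nutrition genes included several very large single changes. NRT2.5, a high-affinity nitrate transporter, stood at 0.268, 0.182 and 0.0658 CPM in mock and at 36.2, 49.1 and 19.2 CPM in 2-AA seedlings (7.63 ± 0.49, adjusted p = 2.15e-08), and was higher than with flg22 (2.16). HAK5, a high-affinity potassium transporter, rose from 0.469, 0.243 and 0.164 CPM to 10.9, 12.8 and 31.9 CPM (5.99 ± 0.52, adjusted p = 3.72e-07). In both, every 2-AA library was above every mock library, with a spread among the 2-AA libraries. Nitrogen genes were higher in 11 of 24 and lower in 6, with the glutamine synthetase GLN1;1 at 2.63 and the nitrate reductase NIA1 at 1.95. Phosphate starvation genes were higher in 9 of 17 and lower in 2, with the phosphate transporter PHT1;4 going from a mean of 38.3 to 232 CPM. Potassium transporters and channels were higher in 12 of 22 and lower in 4. Iron deficiency genes were lower in 8 of 18 and higher in 4. IRT1, the iron transporter of the root surface, was at 69.8, 68.1 and 41.9 CPM in mock, 1.41, 2.57 and 1.25 CPM with flg22 and 5.3, 2.51 and 22.2 CPM with 2-AA (-2.56 ± 0.53 against mock, adjusted p = 0.000886). It was called higher than with flg22 (2.55), though not by limma-voom (2.11) or with robust dispersions (2.55). The call was also lost without 2-AA replicate 3 (1.19), flg22 replicate 1 (2.42) or flg22 replicate 3 (2.36). BHLH39, a regulator of iron uptake, was at 4.69, 5.32 and 4.87 CPM in mock, 0.197, 0.217 and 0.101 CPM with flg22 and 2.9, 2.67 and 4.29 CPM with 2-AA. The 2-AA libraries lay between the other groups, far above flg22 (4.23 ± 0.33, adjusted p = 3.17e-06) and slightly below mock (-0.59, a call lost without mock 3, flg22 2 and 2-AA 2 and without any single mock or 2-AA library other than 2-AA replicate 3). Aquaporins were lower in 19 of 29 and higher in 5, and their summed level fell from 6840, 6704 and 6676 CPM to 3216, 3401 and 3173 CPM, with PIP2;1 of the plasma membrane at -1.90.

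Several further genes were among the largest gains. HR4, a homologue of the mildew resistance protein RPW8, stood at 105, 111 and 84.2 CPM in mock and at 2036, 2334 and 1674 CPM in 2-AA seedlings (4.33 ± 0.14, adjusted p = 7.53e-11). AZI1, a lipid-transfer-like protein of systemic priming, rose from 196, 219 and 208 CPM to 1983, 2244 and 1875 CPM (3.29 ± 0.12, adjusted p = 2.91e-10), and its neighbour EARLI1 by 4.12. AT4G12500 and AT4G12490, of the same tandem cluster, rose by 7.82 and 6.77, and reads may be shared among these copies. The metallothionein MT2A rose from 140, 149 and 174 CPM to 1445, 1558 and 1422 CPM (3.26 ± 0.08, adjusted p = 2e-11), and ADC2, arginine decarboxylase of polyamine synthesis, by 1.94. Among chitinases and defensins 3 of 8 were higher (5 without mock replicate 3) and 3 lower (1 without mock replicate 3), with the chitinase EP3 at 3.74. ATMS1, a methionine synthase, fell from 3304, 3184 and 3567 CPM to 1152, 1184 and 1192 CPM (-1.51 ± 0.07, adjusted p = 7.8e-10). Of 6 genes often used as references, ACT2 (means of 619 and 613 CPM) and 1 other were not called, 2 were higher, including UBQ10 (0.67), and 2 lower, including GAPC2 (-1.07).

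Genes with some of the largest excesses of 2-AA over flg22 were also higher than in mock seedlings. AT1G60750, annotated as an NAD(P)-linked oxidoreductase, was at 0.1, 0.456 and 0.789 CPM in mock, 0.525, 0.0723 and 0.135 CPM with flg22 and 11.8, 12.7 and 11.7 CPM with 2-AA (4.74 ± 0.45 over mock and 5.58 ± 0.49 over flg22, adjusted p = 9.23e-07 and 9.04e-06). EHB1, a protein with a calcium-dependent lipid-binding domain, was at 2.08, 2.86 and 2.07 CPM in mock, 1.71, 1.09 and 2.06 CPM with flg22 and 28.9, 35.2 and 26.1 CPM with 2-AA (3.68 ± 0.20 over mock). AT3G13310, annotated with a DnaJ chaperone domain, was at 48.1, 38.7 and 41.1 CPM in mock, 24.9, 26.3 and 23.3 CPM with flg22 and 254, 274 and 267 CPM with 2-AA (2.64 ± 0.09 over mock). In all 3 genes the mock and flg22 libraries lay far below the 2-AA libraries. CYP89A6, a cytochrome P450, rose by 5.29 over mock and 3.64 over flg22, and the subtilase SBT3.3 by 4.47 and 3.62.

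**Figure D5:**
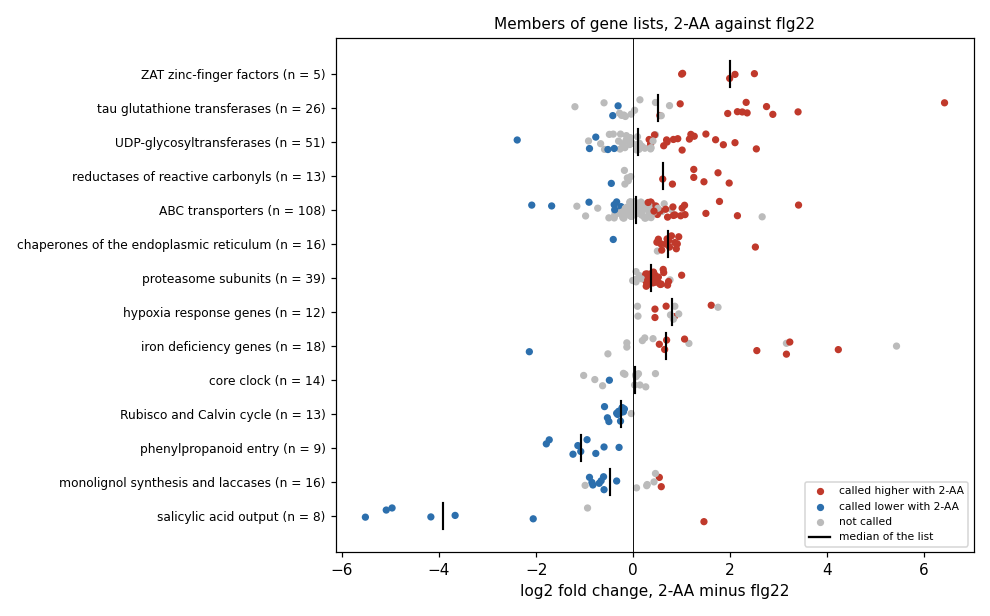
Log2 fold changes of 2-AA minus flg22 for the members of 14 gene lists, with 1 point per gene, red where called higher with 2-AA, blue where called lower, grey where not called, and a bar at the median of each list. ZAT factors, ER chaperones and proteasome subunits lie to the right, phenylpropanoid and salicylic acid output genes to the left, and 1 of 14 core clock genes is called in the main fit.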

How the data were processed

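The authors deposited 1 table of counts per gene locus for 9 libraries. Per the submitters' processing notes, Trimmomatic 0.36, HISAT2, edgeR and the TAIR10 build were used; no source used here gives the program that made the counts, its strand setting or its treatment of reads shared by near copies. From the counts, edgeR 4.0.16 (R 4.3.3, limma 3.58.1) was run with its default filter (minimum count 10), TMM scaling and a quasi-likelihood fit of 3 group means over all 9 libraries (6 residual degrees of freedom, biological coefficient of variation 0.119). The contrasts were 2-AA minus mock and 2-AA minus flg22, with Benjamini-Hochberg adjustment over 21059 genes. All adjusted p-values in the text come from this edgeR test, and SE is the fold change divided by the root of its F statistic. Tested on simulated data for 2-AA against mock over 21059 genes, the fit recovered 87% of changes of log2 size 1 and 99% of size 2. It made 9 false calls. The simulation changed only 100 genes of each size and gave every gene the same spread. It therefore cannot show how scaling or false calls behave where most genes differ and spreads vary by gene, as in these data. The gene lists (85) and the genes described were chosen with earlier results of these data known. Genes were named by a rule: the 12 largest rises and falls, the 10 largest gains and losses in CPM, the first, the most significant and the most changed members of each list, and the 8 largest differences from flg22 in each direction. Named outside that rule, after their values were seen, were APR2, BAK1, BIK1, BIP1, CERK1, CHE, EXPB3, HSP90.1, IRT1, LHCB1.3, LNK2, LUX, MPK4, MPK6, NIA1, NOP56, PAL1, PEPR1, PRR7, PRR9, RPL12-A and WRKY72. Promoters and annotation came from TAIR10.1, to which 32548 loci were matched by locus name. Alternatives were RLE and upper-quartile scaling, other filters, DESeq2 1.42.0, limma-voom, robust dispersions, a test against 1.5-fold, 2 groups only, a replicate block, and leaving out libraries.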

Additional observations from a re-analysis of the deposited data

How the results depend on the processing

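Directions were checked for 175 described genes, and those called in the main fit kept theirs under every alternative that tested them, with 0 reversals. Reversals were not counted for genes not called in the main fit or for list medians. The count of genes called between 2-AA and mock (13103) ranged from 12060 to 12382 when 1 library was left out, and 5586 genes remained called in a test against a 1.5-fold change, a stricter hypothesis by construction. Between 2-AA and flg22 (3317 called), the count ranged from 2204 to 3050 when 1 library was left out, was lowest without 2-AA replicate 2, fell to 2090 when mock 3, flg22 2 and 2-AA 2 were all left out, and was 473 against 1.5-fold. Fits with libraries left out had fewer samples. Of the calls against flg22, 49.9% were higher, 42.2% with upper-quartile scaling and 60.7% against 1.5-fold. Of the listed loci, 1336 were called against mock, 1261 to 1297 when 1 library was left out, and 805 against 1.5-fold. Replicate numbers were not taken to pair the samples, since same-numbered libraries had correlations of their deviations from -0.134 to 0.188. With the replicate block, 12918 genes were called against mock, 3082 against flg22, and 1334 of the listed loci. Limits are the unknown hour of harvest, the unknown duration of treatment, 3 libraries a group, and reads of near copies and of overlapping or antisense genes, which cannot be assigned because the strand setting is not given. Genes at 0 in a library may be present at up to 0.0904 to 0.113 CPM of the unscaled totals.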

Other observations

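Small nucleolar RNAs, which guide the chemical modification of ribosomal RNA, changed in the direction of the ribosome biogenesis genes. Of 72 tested, 35 were lower in 2-AA than in mock seedlings and 0 higher, with a median log2 fold change of -0.85. Their summed level was 139, 134 and 127 CPM in mock and 70.5, 70.8 and 65.9 CPM in 2-AA seedlings, so the groups lay apart. Reads of overlapping host genes were not separated from these counts. Of 279 long noncoding RNAs 57 were higher, 20 lower and 202 not called. Both shares lay below those of all genes tested (31.2% higher and 31.1% lower).

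Some changes formed runs along the chromosomes. Counting at least 5 tested neighbours that all differed by at least 2-fold in 1 direction, 8 runs were higher and 1 was lower with 2-AA (TAIR10.1 coordinates). The run at chr3:9573263-9599988 holds the cytochromes P450 CYP71B19, CYP71B20, CYP71B22, CYP71B23, CYP71B3 and CYP71B24, whose summed mean level went from 44.9 to 274 CPM. A run of leucine-rich repeat kinases at chr1:19237219-19261794 went from 40.2 to 648 CPM, and 1 at chr4:9482429-9508337 with the immune receptors RPP4 and SNC1 from 197 to 611 CPM. The lower run, at chr1:10300631-10309896, holds SAUR62 to SAUR65 among 7 genes and went from 32.4 to 9.51 CPM. Several runs are tandem copies, whose single values are uncertain.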
